A study of Drosophila melanogaster with 3 samples.

Results

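The genes described here lie nearest the ends of 4 chromosome arms of *Drosophila melanogaster*. They were chosen by a rule on position, with earlier results of these data known. On X, 2L and 3L it took every gene whose listed end falls in the first 300 kb. On 3R it took every gene whose listed start falls in the last 300 kb, taken to close at 32080000 (dm6 coordinates). This gave 150 of the 17896 genes in the table, and 1 further gene of the 3L window was not used here. Of the 150 genes, 49 lie wholly inside the span of another gene. All 49 had a count of 0 in every library, as did 3518 of the 3520 such nested genes in the whole table, so their RNA was not measured, and they were set aside. The remaining 101 genes were 11 on X, 34 on 2L, 43 on 3L and 13 on 3R.

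RNA had been sequenced from whole larvae of instar 3 at the wandering stage, when they have left the food before pupariation. The 3 libraries used here, each from a separate pool of 10 larvae, were all from *CycC* Y5 homozygotes. The mutation removes the function of Cyclin C, the partner of CDK8 in the kinase module of the Mediator complex, and the stock had been outcrossed to the white-eyed strain *w1118*. No library of another genotype was analysed here, so every comparison is among genes or among these 3 libraries, and none is between the mutant and a control.

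*Drosophila* has no telomerase. Its chromosome ends are arrays of the telomeric retrotransposons *HeT-A*, *TART* and *TAHRE*, followed inward by subtelomeric repeats and then by the first unique genes. Genes inserted into the repeats can be silenced in a variegated way, which is known as telomeric position effect, whereas many native terminal genes have ordinary and essential functions. In RNA from whole larvae, fewer cells of a type and less RNA per cell cannot be told apart.

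The libraries held between 10179342 and 12146443 counts. *CycC* itself had 0 counts in all 3 libraries, which does not go against the label. Library 3 stood apart from the others in its summed fat body and muscle markers. The summed level of 5 fat body genes was 29183, 25583 and 54702 CPM (counts scaled to a common library total) in libraries 1, 2 and 3, with none of the 5 at 0, and that of 5 muscle genes was 4355, 5150 and 9397 CPM, again with none at 0. Midgut protease markers lay between 14842 and 16239 CPM. Of 4 nervous system markers, *elav* was near 0 with counts of 1, 0 and 1, and the list summed to between 182 and 220 CPM. Markers of the remaining tissues were partly at 0, in 3 cases because the gene is nested. Salivary gland glue genes summed to between 2691 and 6117 CPM with 1 of 5 at 0, testis genes summed to between 64.3 and 110 CPM with 2 of 5 at 0, and hemocyte genes summed to between 239 and 422 CPM with 1 of 4 at 0.

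The terminal genes began at different distances on the 4 arms. On 2L the pseudogene *CR11023* starts 7.53 kb from the end of the listed sequence and *l(2)gl* at 9.84 kb. On 3R *Map205* ends 11.6 kb inside the window's limit. On 3L the first gene, *mthl8*, lies at 22.4 kb, and on X the first, *lncRNA:CR40469*, lies at 122 kb. Between consecutive genes, the longest stretches free of genes were 43.3 kb on X between *tyn* and *CG3038*, 27.6 kb on 3L between *mthl8* and *CG43149*, 14.8 kb on 3R between *CR46418* and *Pos*, and 7.35 kb on 2L between *net* and *Zir*. Of the 101 genes, 53 (52.5%) share bases with another gene, compared with 35.4% of the non-nested genes on the rest of the same arms, so part of their reads may also have been left out.

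The nested genes were grouped under a few hosts. *ND-15*, for a subunit of mitochondrial complex I, spans 41305 bases on 2L (chromosome 2L, 114726 to 156030) and holds 13 of them, and *kis* holds 7. *CG3625*, *Dus1* and *tyn* hold 3 each. Of the 49 nested genes, 24 are protein coding, 21 are noncoding RNA genes, 3 are snoRNA genes and 1 is a pseudogene. Only 17.4% of the span of *ND-15* is free of other genes. Its exons make 1135 of the 41305 bases, and whether other genes cover them was not tested. Its own counts were 403, 489 and 530.

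The median level over the whole terminal windows was higher than elsewhere on the arms, but not in their outermost 100 kb when genes of all types were taken. The median level of the 101 genes was 27.1 ± 1.30 CPM (SD, n = 3 libraries), that of the 117 non-nested genes in the next 300 kb was 16.0 ± 0.98 CPM, and that of the 11101 non-nested genes on the rest of the arms was 9.78 ± 1.08 CPM. Over protein-coding genes alone the medians were 36.4 ± 3.87, 21.4 ± 2.45 and 16.0 ± 1.56 CPM. Per kilobase of exon the medians were 11.9 ± 1.91 CPM for the terminal genes and 5.17 ± 0.594 CPM for the rest. The order held in each library, with medians of 28.4, 27.1 and 25.8 CPM at the ends and 9.88, 10.8 and 8.64 CPM elsewhere. On the scale of log2(CPM + 0.5) the terminal median lay 1.43 ± 0.124 above that of the rest. For the 36 genes that lie wholly within 150 kb it was -0.0101 ± 0.124, while the 40 genes whose outer edge lies within 150 kb had a median of 22.5 ± 5.10 CPM, so the value there depends on the few genes that straddle that limit. Over genes of all types the median was 3.33 ± 0.203 CPM from 0 to 100 kb (26 genes), below that of the rest of the arms. It was 41.4 ± 4.24 CPM from 100 to 200 kb (24 genes) and 27.1 ± 0.572 CPM from 200 to 300 kb (51 genes). Protein-coding genes had medians of 44.4 ± 10.7 CPM from 0 to 100 kb (17 genes), 52.6 ± 5.89 CPM from 100 to 200 kb (20 genes) and 27.1 ± 0.572 CPM from 200 to 300 kb (49 genes). Because genes are not replicates, these medians are given as a description.

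**Figure D1:**
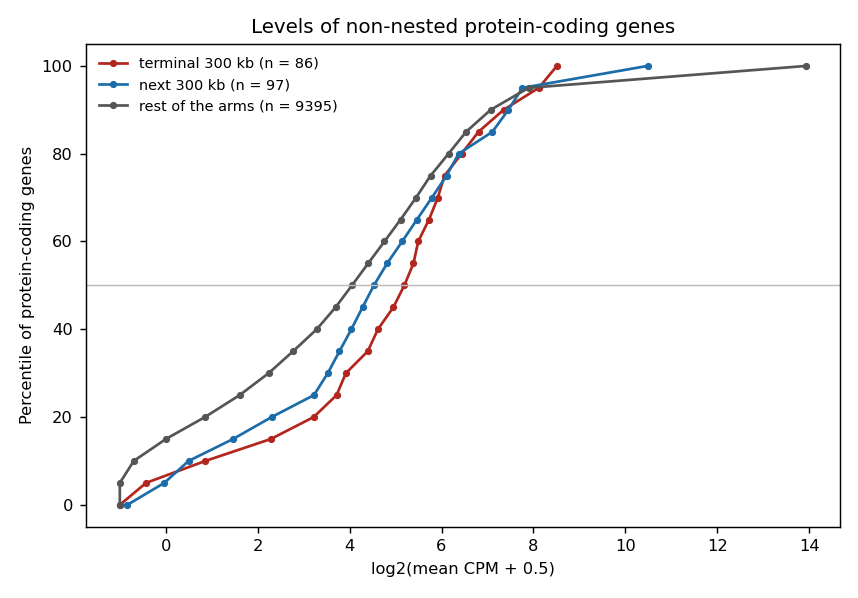
Percentiles (in steps of 5) of log2(mean CPM + 0.5) over 86 protein-coding terminal genes, 97 of the next 300 kb and 9395 of the rest of the arms, with nested genes left out. The curve of the terminal genes lies to the right of the others at the median (5.19 against 4.53 and 4.05), and the 3 curves come closer together between percentiles 75 and 95.

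Within the windows, level did not follow distance in one way. Spearman's rank correlation between mean CPM and distance from the end was 0.098 across all 101 genes and -0.13 across the 86 protein-coding ones, and with levels per kilobase of exon it was 0.18 across all 101. It was -0.35 over 11 genes on X, 0.16 over 34 on 2L, 0.47 over 43 on 3L and -0.23 over 13 on 3R. Over protein-coding genes alone it was -0.42 on X (9 genes), -0.12 on 2L (30), 0.20 on 3L (35) and -0.36 on 3R (12). Per kilobase of exon it was 0.017 over the 86 protein-coding genes. These are descriptions across genes that share the same 3 libraries. On 3L, 9 of the 11 genes before *Pdk1* were below 1 CPM, 4 of them were at 0 in all libraries, and only *mthl8* and *CG13405* passed the filter of 10 counts in every library. On 2L and 3R, by contrast, genes of high level lie next to the end, as the plot of levels along the arms shows.

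**Figure D2:**
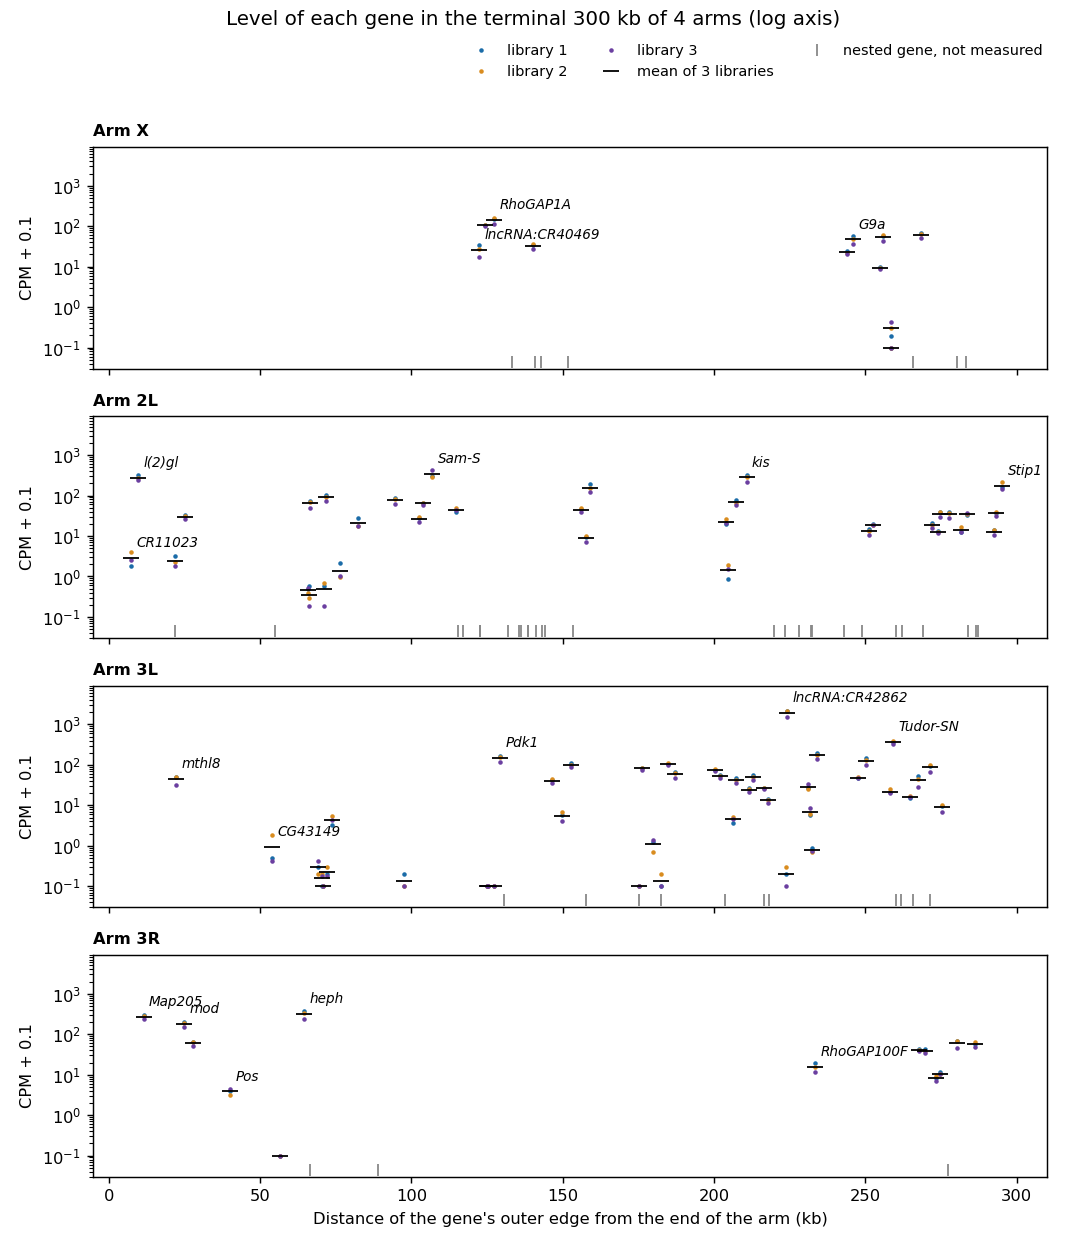
CPM + 0.1 (log axis) of each non-nested gene against the distance of its outer edge from the end of the arm (from the limit of the window on 3R), with coloured points for the 3 libraries and a dash for their mean. Grey ticks mark the 49 nested genes, which were at 0. *l(2)gl* and *Map205* stand above 200 CPM next to the ends of 2L and 3R, and the outer part of 3L is mostly at the bottom of the axis.

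The genes next to the end of 2L contrasted sharply. *CR11023* had 18, 41 and 29 counts. *l(2)gl*, a tumour suppressor that sets up apical-basal polarity, had 3210, 2781 and 3010 counts, or 278 ± 33.4 CPM (SD, n = 3). *Ir21a*, a receptor of cool-sensing neurons, had 32, 22 and 21 counts, or 2.34 ± 0.718 CPM. Per kilobase of exon these levels were 1.45 CPM for *CR11023*, 46.5 for *l(2)gl* and 0.890 for *Ir21a*, and *l(2)gl* was above both neighbours in every library.

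On 3R, *Map205*, which encodes a microtubule-associated protein, had 3083, 2900 and 2835 counts (273 ± 35.5 CPM). Next to it, *mod*, for the nucleolar and chromatin protein Modulo, had 2061, 1981 and 1803 counts (182 ± 28.9 CPM), and *krz*, for the beta-arrestin Kurtz, had 664, 654 and 614 (59.9 ± 8.12 CPM). Farther in, *heph*, for the fly's polypyrimidine tract-binding protein, had 3774, 3361 and 2811 counts (310 ± 71.0 CPM). Its span of 168534 bases takes up most of the window, and its exons make 7.19% of that span. Per kilobase of exon *mod* was the highest of the 4 at 79.4 CPM, followed by *Map205* at 45.2, *heph* at 25.6 and *krz* at 11.3. The listed length of all 17896 genes is the whole span. Per kilobase of that length *mod* was at 62.3 CPM, *Map205* at 20.8, *krz* at 8.97 and *heph* at 1.84.

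On 3L, *mthl8*, a G protein-coupled receptor of the Methuselah-like family, had 526, 505 and 389 counts. It was followed by *CG43149* with 4, 18 and 4 counts and by *lncRNA:CR44510* with 2, 1 and 4. Both of these fell under 10 counts in at least one library and were not tested.

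On X, *lncRNA:CR40469*, a noncoding RNA of 214 bases, had 342, 276 and 212 counts, which is 26.0 ± 8.06 CPM and 122 CPM per kilobase. Its neighbour *CG17636* had 1093, 1072 and 1231 counts (105 ± 2.87 CPM), and *RhoGAP1A* had 1529, 1586 and 1407 (140 ± 21.5 CPM). Per kilobase of exon *CG17636* was at 51.3 CPM and *RhoGAP1A* at 23.1, both below the short noncoding RNA, which on that scale came next to the highest of the 101 genes.

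One noncoding RNA supplied more reads than any other of these genes. *lncRNA:CR42862* (chromosome 3L, 224106 to 230964, plus strand) had 21835, 22310 and 18236 counts, or 1943 ± 383 CPM. This was 26.9%, 28.1% and 24.2% of the counts of the 101 genes in libraries 1, 2 and 3, and it was the highest of them also per kilobase of exon, at 354 CPM. *Tudor-SN*, for a nuclease-domain protein of the RNA-induced silencing complex, had 3848, 3903 and 4048 counts, 364 ± 27.2 CPM or 107 CPM per kilobase of exon. *Sam-S* followed on that scale at 95.9 and *Stip1*, a co-chaperone of Hsp70 and Hsp90, at 86.3. Without regard to length, 16 of the 101 genes (15.8%) reached 100 CPM, compared with 11.7% on the rest of the arms.

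At the other extreme, 7 non-nested genes were at 0 in all 3 libraries, among them *lncRNA:CR43150*, *lncRNA:CR45401*, *lncRNA:CR45402* and *lncRNA:CR45400* on 3L. A count of 0 allows up to 3 counts, or 0.293, 0.295 and 0.247 CPM in libraries 1, 2 and 3, counting error only. *CG13377* on X, also at 0, has its whole span covered by other genes. Genes other than protein-coding ones were low as a group: 5 of 15 (33.3%) were at 0 and 3 (20%) passed the filter. On the rest of the arms 38.0% of such non-nested genes were at 0 and 6.51% passed it. The terminal group also held *lncRNA:CR42862* and *lncRNA:CR40469*, at 354 and 122 CPM per kilobase of exon. These were the highest of the terminal genes on that scale.

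Variation between the libraries was tested for each gene by a chi-square test of its counts against TMM library sizes. P-values were adjusted by the Benjamini-Hochberg method over all features of the gene and transposon tables with at least 10 counts in every library. The test compares these pools of larvae with counting noise and is not a test of a condition. Of all 9898 features tested, 39.4% were called at an adjusted p under 0.05. Of the 101 terminal genes 79 passed the filter, and 35 of the 79 (44.3%) were called, a share near the background. Without library 3 the call was made for 13 of 79 (16.3% of all features), and without library 1 for 19 of 80 (29.5%). With total counts in place of TMM library sizes it was made for 55 (60.1%). The call depended on depth. Among terminal genes with at least 500 counts in every library 23 of 33 (69.7%) were called, among those from 100 to below 500 counts 10 of 35 (28.6%), and below 100 counts 2 of 11 (18.2%), beside 64.8%, 31.8% and 20.5% of all features in the same ranges.

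The size of the variation was small. The median biological coefficient of variation was 0.131 for the 79 genes and 0.142 for all features, and 32 of the 79 lay above the latter. The highest library exceeded the lowest by more than 1.5-fold for 10 of the 79 (12.7%) and for 18.9% of all features. Only *CR11023*, with few counts, passed 2-fold.

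The direction was less evenly divided. Of the 35 called genes, 22 were highest in library 1, 6 in library 2 and 7 in library 3. Of the 3903 features called among all 9898, 1105 were highest in library 1, 980 in library 2 and 1818 in library 3. As shares of the 9898 these are 11.2%, 9.9% and 18.4%. In 19 of the 79 genes (24.1%) the call went with the order library 1 above 2 above 3, which 8.76% of all features showed. The share was 19.3% (17 of 88) in the next 300 kb and 8.10% on the rest of the arms, so it was not seen at the terminal windows alone. The median log2 ratio of library 3 over library 1 was -0.11 for the terminal genes and 0.0059 for all features. With total counts as library sizes the median of the 9822 tested genes moved by -0.24 on the log2 scale.

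Exon length moved with this order. Across the 79 genes Spearman's rank correlation between exon length and the log2 ratio of library 3 over 1 was -0.54, and across 9821 tested genes of the whole table it was -0.38. The 19 ordered and called genes had a median exon length of 6476 bases, and the other 60 a median of 1941. Of the 19 tested terminal genes with 5 kb of exon or more 13 were in this class (68.4%), beside 30.3% of all genes of that length. From 2 kb to below 5 kb the shares were 15.4% and 9.18%, and below 2 kb they were 5.88% and 2.12%. Tissue markers also differed between these libraries. In sum, fat body, muscle and hemocyte markers were highest in library 3 (hemocytes 263, 239 and 422 CPM). The hemocyte sum followed *PPO2* (684, 810 and 3411 counts), while *NimC1* (539, 515 and 382) and *Hml* (1468, 1108 and 1327) were highest in library 1. Of the fat body genes *Lsp2* departed from the sum, with 9709, 8113 and 10956 counts. The total of library 3 was 12146443 counts and that of library 1 was 10222639. The CPM of *Lsp2* was thus lower in library 3 than in library 1, while with TMM library sizes it was higher. Salivary gland glue genes summed highest in library 1 (6117, 2691 and 3682 CPM). The part of exon length or of any of these tissues in the order was not tested.

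**Figure D3:**
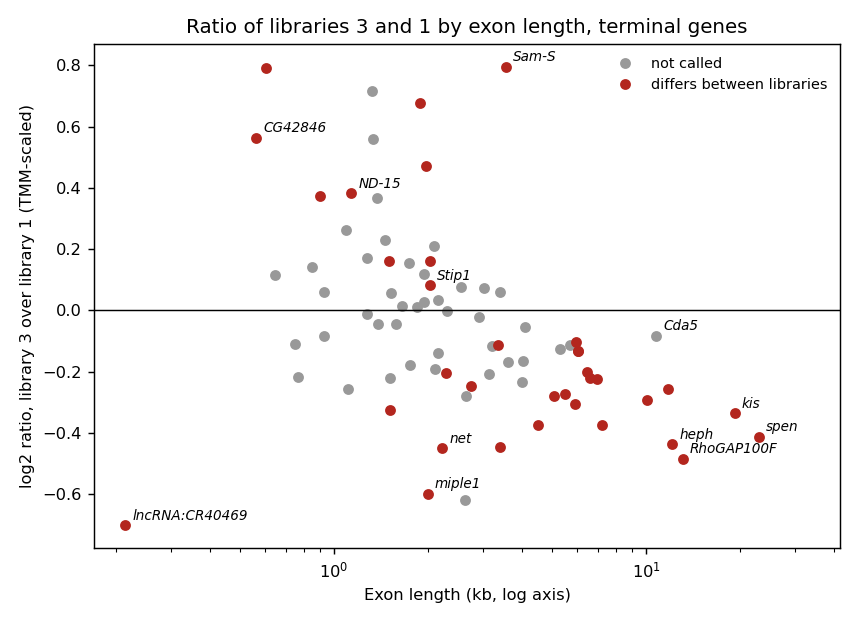
Log2 ratio of TMM-scaled counts in library 3 over library 1 against exon length (kb, log axis) for the 79 tested terminal genes, in red where the libraries differed by the chi-square test. Long genes such as *kis*, *spen*, *heph* and *RhoGAP100F* lie below 0. *lncRNA:CR40469*, at 214 bases, is an exception with the lowest ratio of all, -0.70.

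On the list of chromatin and transcription regulators, which was chosen with earlier results of these data known, all 8 terminal members of that list passed the test, all 8 were highest in library 1, and 7 were lowest in library 3, with fold differences between the extreme libraries from 1.15 to 1.67. Their median level was 108 CPM, and 6 of the 8 have more than 5 kb of exon. Beside these counts stand the 39.4% of all features called and the 64.8% called at 500 counts or more. Of all genes with 5 kb of exon or more, 30.3% were called in the order of libraries 1, 2 and 3. Of tested terminal genes of that length 13 of 19 (68.4%) were, among them *heph* and *Pdk1*, which are not on the list. *kis*, a CHD-family remodeller of the trithorax group, had 3339, 2990 and 2668 counts (adjusted p = 2.4e-17). *spen*, for a large RNA-binding repressor, had 1923, 1599 and 1457 counts (adjusted p = 7.1e-16). Libraries 1, 2 and 3 were in descending order in both genes.

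*E(bx)*, for the largest subunit of the nucleosome remodelling factor NURF, had 2023, 1799 and 1666 counts (adjusted p = 1.8e-08). *G9a*, a histone H3 lysine methyltransferase gene, had 568, 493 and 442 (adjusted p = 7.1e-04). *rno*, for a PHD-finger antagonist of EGFR signalling, had 691, 637 and 583 (adjusted p = 0.019). The same descending order was seen in all of these, and in *mod* (adjusted p = 2.7e-04) and *ewg*, the fly's NRF1-type transcription factor, with 697, 644 and 602 counts (adjusted p = 0.047).

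*net* departed from it. This basic helix-loop-helix repressor of wing vein formation had 290, 177 and 214 counts, a 1.67-fold difference between libraries 1 and 2 (adjusted p = 1.1e-06), with library 3 in between. It was the only member of the list whose lowest value was in library 2.

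Of 4 signalling genes, 2 were called. *Pdk1*, a kinase downstream of phosphoinositide 3-kinase and the insulin receptor, had 1696, 1590 and 1466 counts, 1.17-fold apart (adjusted p = 3.8e-04), and *RhoGAP1A* was 1.12-fold apart (adjusted p = 0.017). *smo*, the transducer of Hedgehog signals, with 392, 379 and 336 counts, and *krz* were not called. Of the cell polarity and cytoskeleton list, 3 of 6 were called: *l(2)gl* (1.17-fold, adjusted p = 3.9e-08), *Map205* (1.10-fold, adjusted p = 0.0024) and *Zir*, a guanine nucleotide exchange factor of the DOCK family, with 868, 814 and 761 counts (1.15-fold, adjusted p = 0.046). *Dic61B*, an axonemal dynein chain, with 59, 68 and 49 counts, *tyn* with 354, 363 and 330, and *mri* with 782, 802 and 877 were not called.

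Metabolic and secreted-protein genes held the largest single difference among genes with at least 100 counts. *Sam-S*, the enzyme that makes S-adenosylmethionine, the methyl donor of most methylation reactions, had 3030, 2964 and 5302 counts. Library 3 was 1.80-fold above library 2 (adjusted p = 1.8e-203), and libraries 1 and 2 were close. This is the library in which the summed level of the fat body markers was also high, at 54702 CPM against 29183 and 25583, and the part of that tissue in the difference was not tested. *ND-15* differed 1.30-fold between libraries 1 and 3 (adjusted p = 0.0011). It was highest in library 3 on the TMM scale and in library 2 by CPM (39.4, 48.0 and 43.6).

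*galectin*, a beta-galactoside-binding protein, with 1060, 941 and 900 counts, was instead highest in library 1 (1.19-fold, adjusted p = 0.0011). *Cda5*, a chitin deacetylase-like gene, with 335, 308 and 319 counts, and *cin*, for a molybdenum cofactor enzyme, with 597, 604 and 527, were not called. *Gs1*, a glutamine synthetase gene, is nested and was not measured. Of the 3 receptors, *mthl8* was called (1.36-fold, adjusted p = 4.2e-05), and *mthl14*, with 484, 503 and 564 counts, and *Ir21a* were not.

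The remaining genes with the widest spread fell on both sides. *CG42846* had 273, 261 and 407 counts, highest in library 3 (1.57-fold, adjusted p = 5.6e-09). *CG3625* had 329, 351 and 460, also highest in library 3 (1.39-fold, adjusted p = 1.5e-05). *CG34454*, next to *CG42846* on the same strand and looked up after that gene, had 59, 61 and 103 (1.73-fold, adjusted p = 0.0010).

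In the other direction, *lncRNA:CR40469* was 1.63-fold higher in library 1 than in library 3 (adjusted p = 8.0e-07). *miple1*, for a secreted midkine and pleiotrophin homologue, had 529, 461 and 352 counts (1.52-fold, adjusted p = 6.7e-08). *RhoGAP100F*, the fly's Syd-1 of presynaptic assembly, had 197, 154 and 142 (1.40-fold, adjusted p = 0.013). Each was highest in library 1 and lowest in library 3. *miple1* lies beside its paralogue *miple2*, which had 977, 1001 and 786 counts and was also lowest in library 3 (adjusted p = 2.0e-06), and how reads shared by paralogues were counted is not given in the sources used here.

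**Figure D4:**
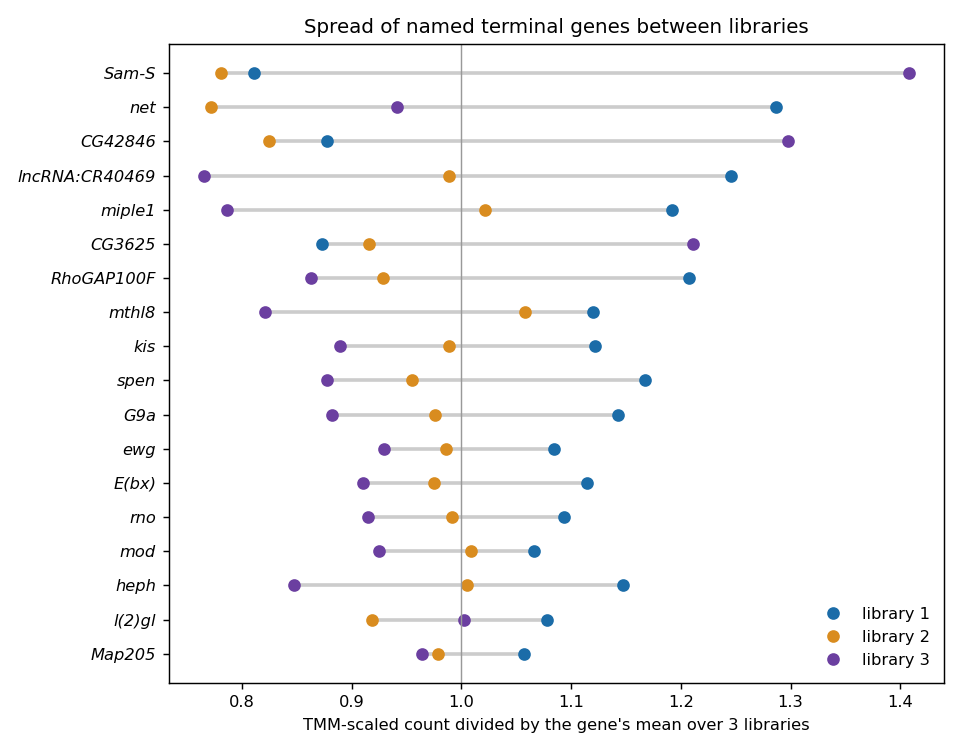
TMM-scaled count in each library divided by the gene's mean over the 3 libraries, for 18 named terminal genes; the grey bar joins the extremes. Library 3 is highest for *Sam-S*, *CG42846* and *CG3625*, and library 1 for the other 15.

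The telomeric retrotransposons, which lie beyond these genes, also differed between the libraries. *HeT-A* had 3792, 2855 and 1873 counts, or 371, 280 and 154 CPM, and *TART* had 401, 374 and 280. Their log2 ratios of library 3 over library 1 were -1.03 and -0.53. None of the 79 terminal genes was as low as *HeT-A*, and 3 (3.80%) were at or below *TART*, beside 0.475% and 4.18% of all features. The terminal genes ranged from -0.70 to 0.80. The families are counted over all their copies, wherever these lie, so their level cannot be assigned to any one of the 4 arms.

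**Figure D5:**
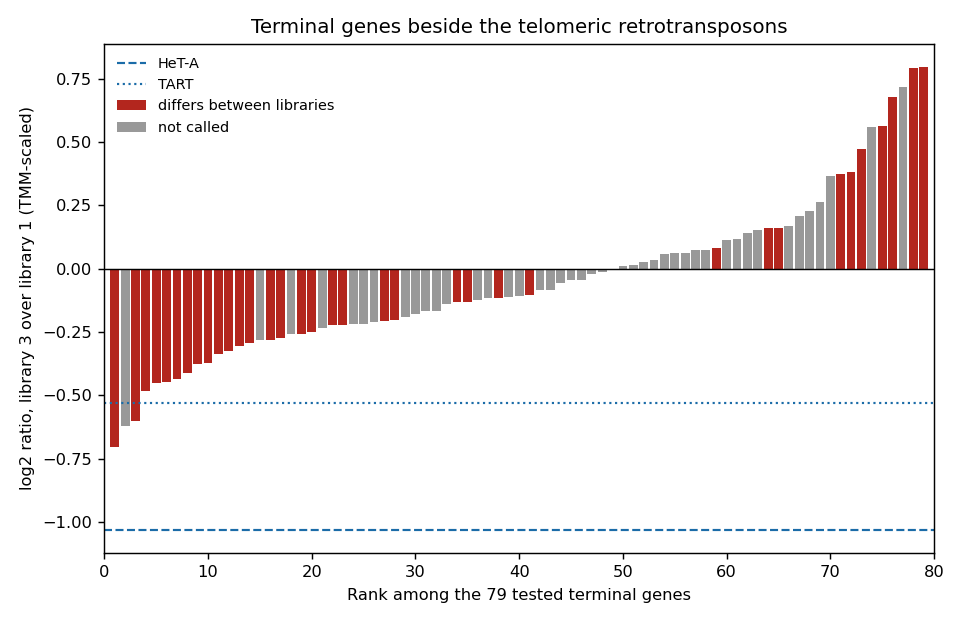
Log2 ratio of TMM-scaled counts in library 3 over library 1 for the 79 tested terminal genes, ranked, in red where the libraries differed by the chi-square test; lines mark *HeT-A* at -1.03 and *TART* at -0.53. No bar reaches the *HeT-A* line and 3 pass the *TART* line.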

How the data were processed

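The authors deposited whole-number read counts per gene and per transposon family for whole larvae, not normalized. The labels name STAR and dm6, and the counting program is not given in the sources used here. Coordinates of 99.8% of 17819 genes on named chromosomes, and of all 150 genes described, equal those of the Ensembl BDGP6.54 annotation, which gave exon lengths and symbols. In the transposon table, the column names were read 1 cell to the right. A further 11 columns of per-sample values were not used.

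CPM were computed from the total of both tables. TMM library sizes and tagwise biological coefficients of variation (intercept only) came from edgeR 4.0.16 in R 4.3.3, with DESeq2 1.42.0 as the alternative. With a single genotype there was no contrast to fit, so the chi-square test of homogeneity was used. The minimum count was 10 in every library and the threshold 0.05. Its p-values set the differences between these pools against counting noise only, so they depend on depth and do not measure the size of the spread. The steps were tested on simulated data. Other steps used Python 3.11.15, SciPy 1.17.1, pandas 2.3.3, NumPy 2.4.6 and matplotlib 3.10.9.

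The genes and the functional and tissue lists were chosen with earlier results of these data known. Named with values were the 3 non-nested genes nearest each arm's end, the 3 with the highest mean CPM on each arm, the 8 called genes with the largest coefficient of variation and at least 100 counts in every library, and those on the functional lists. *CG34454*, *miple2* and *Stip1* were added after values were seen. Alternatives were other library sizes, filters, thresholds, windows, length scales and the loss of each library. A search of promoters for motifs was planned and not run, since no promoter sequences were used here.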

Additional observations from a re-analysis of the deposited data

How the results depend on the processing

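The count of 35 genes called stayed within 1.5 times under several settings, given with the share of all features called. It was 34 of 79 with DESeq2 size factors (39.6%), 35 of 94 with no low-count filter (30.7%) and 34 of 73 with at least 50 counts (44.9%). At a threshold of 0.01 it was 26 of 79 (30.6%). For protein-coding genes alone, chosen after seeing the data, it was 32 of 76, beside 39.0% on the rest of the arms. The count rose to 55 with total counts as library sizes, when 60.1% of all features were called. It was 14 of 22 tested genes within 150 kb and 20 of 37 that share no base with another gene, beside 39.4% of all features. Leaving out one library each gave 13 without library 3 (16.3% of all features), 19 without library 1 (29.5%) and 32 without library 2 (31.8%). The count with the order library 1 above 2 above 3 was 19 with DESeq2 size factors (8.91% of all genes tested) and 31 with total counts (22.5%). Among genes sharing no base it was 11 of 37, beside 8.76% of all features. These settings were chosen after seeing the data. The difference of median log2 levels from the rest of the arms, 1.43, was 0.68 over genes with at least 10 counts in every library, 0.44 with nested genes kept, -0.0101 within 150 kb, 1.12 per kilobase of exon and 1.17 for protein-coding genes alone (chosen after seeing the data), and that of the next 300 kb was 0.70; without one library it was 1.38 to 1.499. The rank correlation of level with distance, 0.098, was -0.18 over tested genes, 0.25 per kilobase of listed length, 0.18 per kilobase of exon, and -0.35, 0.16, 0.47 and -0.23 on X, 2L, 3L and 3R. The number passing the filter and the median biological coefficient of variation (0.106 to 0.158 without one library) stayed within 1.5 times. The levels of 38 named genes moved by less than 1 SD with TMM or DESeq2 library sizes. With 1 of 3 libraries left out a mean cannot move by 1 SD, so that limit does not measure stability there. The level of *CG43149*, for example, went from 0.830 to 0.360 CPM without library 2. No paired analysis was possible because all samples belong to one group. Depth limits calls on genes with few counts, such as *Ir21a*.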
